A study of Mus musculus with 6 samples.

Results

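Zeb1, Zeb2, Snai1, Snai2, Twist1 and Twist2 encode the transcription factors best known for repressing epithelial genes during the epithelial to mesenchymal transition (EMT), and Ets1 encodes an ETS-domain transcription factor tied to mesenchymal, vascular and matrix genes. The 7 genes were taken by symbol and followed with every probe set that carried 1 of those symbols alone, which gave 18 of the 45037 probe sets on the array without controls, and 7 of its 18193 named genes. Zeb1 and Ets1 had 4 probe sets each, Zeb2 had 5, Snai2 had 2, and Snai1, Twist1 and Twist2 had 1 each. The genes were measured in J1 cells, a line of mouse embryonic stem cells, after lentiviral short hairpin RNA against Jmjd1c, a gene of the JmjC histone demethylase family. The 3 groups were cells with the hairpin shJmjd1c#3 (sh3), cells with the hairpin shJmjd1c#4 (sh4) and cells with a non-targeting hairpin (shNT), labelled wild type, with 2 arrays each from samples named biological replicates. All 3 groups carried the pLKO.1 vector and shared their handling: puromycin at 1.5 ug/ml for 2 days, then 4 days on gelatin, without a feeder layer named in the labels, in medium that held leukemia inhibitory factor at 1000 U/ml and 15% serum. The hairpins lower a transcript and leave the gene in place, and the labels name no clone, so each group is taken as a selected population.

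The Zeb factors are zinc-finger and homeodomain proteins, and the Snail factors (Snai1, known as Snail, and Snai2, known as Slug) are zinc-finger proteins. Both kinds bind the E-box CACCTG in promoters such as that of Cdh1, the epithelial cadherin, and recruit corepressors there. The Twist factors are basic helix-loop-helix proteins that pair with E proteins and act in mesoderm and neural crest. Zeb1 and Zeb2 repress the genes of the miR-200 family of microRNAs and are themselves repressed by them, a loop that holds cells in an epithelial or a mesenchymal state, and ETS1 has been described as a target of the same family in human cells. Embryonic stem cells are epithelial in character: they carry Cdh1 at their contacts and pass through an EMT when they form mesoderm.

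The mature miR-200 sequences are shown because the Zeb genes, and ETS1 in human cells, have been described as targets of this family. They are RefSeq entries on the mouse build GRCm38.p6, all on the minus strand, written 5′ to 3′ with the seed (bases 2 to 8) in capitals. Those of miR-200b, miR-200a and miR-429 lie at chr4:156055685-156055706, chr4:156054911-156054932 and chr4:156053916-156053937. Those of miR-200c and miR-141 lie at chr6:124718324-124718346 and chr6:124717917-124717938. The first 3 lines share the seed AAUACUG and the last 2 share AACACUG. Mature microRNAs were not analysed here.
mmu-miR-200b-3p: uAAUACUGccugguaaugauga
mmu-miR-200c-3p: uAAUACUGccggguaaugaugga
mmu-miR-429-3p: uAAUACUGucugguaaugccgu
mmu-miR-200a-3p: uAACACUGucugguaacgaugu
mmu-miR-141-3p: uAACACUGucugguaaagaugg

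The E-box that the Zeb and Snail factors bind was searched, as the single motif CACCTG or its reverse complement CAGGTG, in the 250 bases before each gene start in the RefSeq promoter table (GRCm38.p6). Of all its entries, 5252 of 27025 genes (19.4%) held it, and 5657 of 32851 windows (17.2%). Of the 30 genes on an epithelial list described below, 19 had an entry and 14 of those (73.7%) held the motif, in 16 of 26 windows (61.5%). Of the mesenchymal list, 0 of 15 genes with an entry held it in 18 windows, and of the list of other miR-200 targets 5 of 30 (16.7%). Of the 4 EMT repressor genes with an entry, Snai1 held it, and the windows of Zeb2, Twist1 and Twist2 did not hold these letters. A match describes the sequence and does not show a bound site. The 4 windows printed are those of Snai1, the repressor gene with the motif, and of Cldn6, Krt8 and Krt18, epithelial genes whose values are given below. They lie at chr2:167537945-167538194 (plus strand), chr17:23679115-23679364 (plus), chr15:102004343-102004592 (minus) and chr15:102027966-102028215 (plus), and capitals mark the E-box.
Snai1: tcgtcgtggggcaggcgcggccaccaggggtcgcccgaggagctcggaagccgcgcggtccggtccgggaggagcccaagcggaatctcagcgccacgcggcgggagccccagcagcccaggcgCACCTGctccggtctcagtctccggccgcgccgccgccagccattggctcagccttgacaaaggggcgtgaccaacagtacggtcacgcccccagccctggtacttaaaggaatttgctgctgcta
Cldn6: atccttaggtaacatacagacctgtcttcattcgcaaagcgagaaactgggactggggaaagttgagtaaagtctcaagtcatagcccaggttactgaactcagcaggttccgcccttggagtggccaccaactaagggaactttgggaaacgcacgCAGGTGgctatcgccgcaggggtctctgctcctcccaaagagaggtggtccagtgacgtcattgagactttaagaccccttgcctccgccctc
Krt8: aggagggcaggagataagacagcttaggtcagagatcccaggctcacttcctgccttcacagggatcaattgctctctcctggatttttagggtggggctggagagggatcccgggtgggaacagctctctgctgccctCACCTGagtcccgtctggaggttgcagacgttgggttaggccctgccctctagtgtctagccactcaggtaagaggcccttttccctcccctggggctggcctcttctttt
Krt18: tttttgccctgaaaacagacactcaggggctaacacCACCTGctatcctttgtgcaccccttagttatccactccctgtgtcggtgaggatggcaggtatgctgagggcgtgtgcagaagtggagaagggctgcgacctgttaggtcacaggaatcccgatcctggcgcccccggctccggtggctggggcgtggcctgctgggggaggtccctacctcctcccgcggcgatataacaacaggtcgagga

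The values were array signals on a linear scale, as deposited, and differences are given on the scale log2(signal + 16), which understates the change of dim probe sets. Array medians ran from 69.2 to 81.0. A signal of 40.12 marked the 40th percentile of all probe sets, and 12 of the 18 probe sets averaged at or above it. The brightest Jmjd1c probe set read 4541 and 4984 in sh3, 3274 and 4215 in sh4, and 6060 and 5516 in shNT, and its knockdown difference of −0.46 did not pass (limma adjusted p = 0.358). It lay below both shNT arrays on every knockdown array, as 7.62% of all probe sets did. In a fit with the replicate number as a block, which compares same-numbered arrays, it fell in sh4 (limma adjusted p = 0.0394). The other 2 Jmjd1c probe sets lay above both shNT arrays on every knockdown array, as 9.66% of all probe sets did. One averaged 694 in sh3, 726 in sh4 and 371 in shNT (0.90 ± 0.152, SE, limma adjusted p = 0.117), and with the block it rose (adjusted p = 0.0127). The other averaged 399 in sh3, 412 in sh4 and 235 in shNT (0.73 ± 0.245, SE, limma adjusted p = 0.439). The probe sets of the targeted gene thus disagreed, and knockdown here names the labelled hairpin. Actb signal at the 3′ end over that at the 5′ end, which rises as RNA degrades, was 2.26 and 2.40 in sh3, 2.80 and 2.81 in sh4, and 2.70 and 2.77 in shNT. The embryonic stem cell label was met by its markers: the summed signal of 12 embryonic stem cell markers, all above the 40th percentile, was 99788 to 117301 on the 4 knockdown arrays and 119880 and 144420 on the shNT arrays. Averaged over the hairpins, 11 of the 12 had negative differences (median −0.30, against 0.01 over all genes). Of these markers 0 passed in limma (0.725% of all genes did), and 6 fell with the block (2.26% of all genes fell).

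Ets1 gave the highest fold of signal over shNT among the members at or above the 40th percentile, and it was the member that passed a test across genes without the pairing of replicates. Its brightest probe set (1452163_at) read 276 and 506 in sh3, 366 and 459 in sh4, and 134 and 119.9 in shNT. Every knockdown array lay above both shNT arrays, as in 9.66% of all probe sets, and the sh3 and sh4 arrays overlapped. The mean signal was 402 ± 102 over the knockdown arrays (SD, n = 4) against 127 ± 10.3 in shNT (SD, n = 2), a ratio of 3.16. In the limma fit on 1 probe set per gene, adjusted over 12684 genes, Ets1 rose by 1.51 ± 0.251 (SE; adjusted p = 0.0400) in the knockdown mean, the average of both hairpins against shNT. In that fit 92 genes passed, 0.725% of those tested, and 71 of them were higher (0.56%). The probe set for 18S ribosomal RNA read 6177 and 5333 in sh3, 3712 and 5013 in sh4, and 8139.7 and 6875 in shNT, lower on every knockdown array, and the part of such RNA differences in the Ets1 value was not tested.

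The call of Ets1 held in the gene fit and not over all probe sets. Over all 45037 probe sets, where 19 passed (0.0422%), the limma adjusted p of the same probe set was 0.114. Without each array in turn, Ets1 in the gene fit stayed under the threshold without sh3 replicate 1 (limma adjusted p = 0.0312) and gave 0.0851 to 0.161 without any other array, with differences of 1.30 to 1.72. With the replicate block limma's adjusted p was 0.00144 over genes and 0.0112 over probe sets. The block called 710 genes (5.6%) and 466 probe sets (1.03%) in the knockdown mean.

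With each hairpin alone the Ets1 difference was 1.45 in sh3 and 1.58 in sh4, each with an SE of 0.290 in the gene fit, with limma adjusted p = 0.121 in sh3 (0.00661 with the block) and 0.0680 in sh4 (0.00317 with the block). In the same fit 9 genes (0.071%) passed in sh3 and 46 (0.363%) in sh4, and with the block 435 (3.43%) and 622 (4.9%). The hairpin comparisons share the shNT arrays. The difference sh4 minus sh3 for Ets1 was 0.13 ± 0.290 (SE, limma adjusted p = 0.972).

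The other 3 Ets1 probe sets also lay above both shNT arrays on every knockdown array, a place found in 9.66% of all probe sets. The probe set 1426725_s_at read 281 and 374 in sh3, 246 and 303 in sh4, and 128 and 166 in shNT, a ratio of 2.04 between the knockdown and shNT means. Its difference was 0.95 ± 0.217 (SE), with limma adjusted p = 0.266 over all probe sets and 0.0351 with the block. A dim probe set, 1422027_a_at, read 32.1 and 39.0 in sh3, 34.95 and 33.4 in sh4, and 3.20 and 2.87 in shNT. Its difference of 1.42 ± 0.325 (SE, limma adjusted p = 0.266) came from signals below the 40th percentile on all arrays, and it moved between 0.56 and 3.15 with pseudocounts of 64 and 1. The probe set 1422028_a_at read 38.1 to 49.8 on the knockdown arrays and 31.6 and 31.7 in shNT, a difference of 0.29 ± 0.341 (SE, limma adjusted p = 0.874). These probe sets are not independent measurements, since both brighter ones were designed on the same source sequence and both dimmer ones on another.

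**Figure D1:**
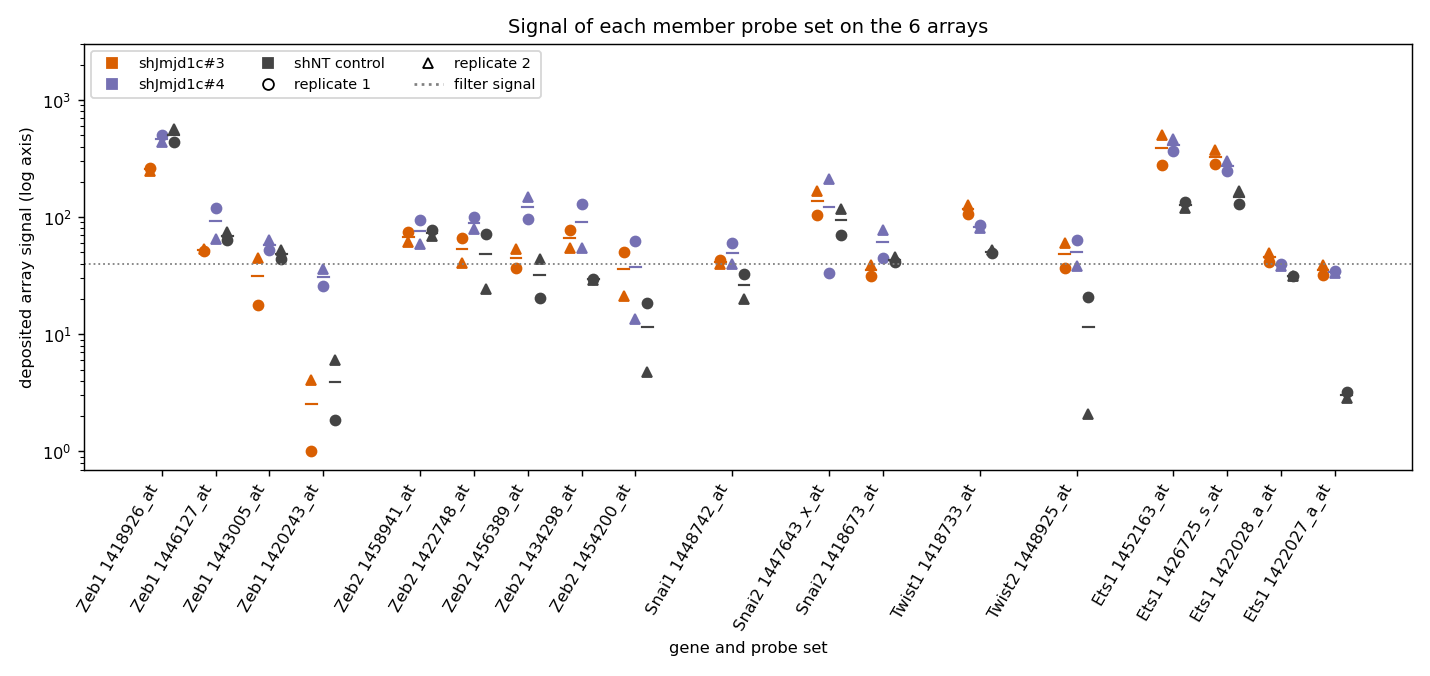
Signal of every probe set of the 7 genes on each of the 6 arrays, on a log axis, with sh3, sh4 and shNT from left to right at each probe set, 1 point per array (circle for replicate 1, triangle for replicate 2), a short bar at each group mean and a dotted line at the 40th percentile. The Ets1 probe set 1452163_at lay at 276 to 506 on the knockdown arrays and at 119.9 and 134 in shNT, and Zeb1 1418926_at lay lowest in sh3, at 246 and 264.

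Zeb1 was lower with sh3 and differed little from shNT with sh4. Its brightest probe set (1418926_at) read 264 and 246 in sh3, 497 and 435 in sh4, and 441 and 566 in shNT. Both sh3 arrays lay below both shNT arrays, as in 17.1% of all probe sets, and below both sh4 arrays, as in 19.8%. The sh4 and shNT arrays overlapped. The mean signal in sh3, 255 ± 12.5, was 50.6% of the shNT mean of 503 ± 88.8, and the mean in sh4, 466 ± 43.7, was 92.6% of it (SD, n = 2 each). In sh3 the difference was −0.93 ± 0.197 (SE), with limma adjusted p = 0.140 over genes, and with the block Zeb1 fell (adjusted p = 0.0186). Over all probe sets the limma adjusted p was 0.361, and 0.0697 with the block. In sh4 the difference was −0.10 ± 0.197 (SE, limma adjusted p = 0.899).

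The difference between the hairpins in Zeb1 was itself tested and did not pass. Sh4 minus sh3 was 0.83 ± 0.197 (SE), with limma adjusted p = 0.503 over genes and 0.0824 with the block. In that contrast 0 genes passed in limma and 774 had an unadjusted p under 0.05, and the block called 53 genes (0.418%). Averaged over the hairpins, the Zeb1 difference was −0.51 ± 0.170 (SE, limma adjusted p = 0.269), and it kept its sign without each array in turn, at −0.69 to −0.34. Averaged over its probe sets, Zeb1 gave −0.03 in the knockdown mean (limma adjusted p = 0.985), −0.46 in sh3 (0.694) and 0.41 in sh4 (0.632). The Actb end ratio given above was also lower on both sh3 arrays than on the other 4, and its part in the Zeb1 difference was not tested.

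The 3 dimmer Zeb1 probe sets shared the order of the hairpins and differed from shNT in other ways. The probe set 1446127_at read 51.3 and 53.6 in sh3, 120.3 and 65.2 in sh4, and 64.2 and 74.5 in shNT. The probe set 1443005_at read 17.8 and 44.7 in sh3, 52.0 and 63.6 in sh4, and 43.7 and 52.2 in shNT. The dimmest, 1420243_at, read 1.01 and 4.10 in sh3, 25.7 and 35.9 in sh4, and 1.86 and 6.03 in shNT. In all 4 Zeb1 probe sets both sh4 arrays lay above both sh3 arrays, an order found in 19.8% of all probe sets. The dimmest set stood apart from the others in its sh4 value, with sh4 above shNT by 1.23 ± 0.344 (SE, limma adjusted p = 0.352) while its sh3 and shNT signals were a few units.

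Zeb2, the paralog of Zeb1, had no probe set that passed. The brightest, 1458941_at, read 74.1 and 60.95 in sh3, 94.97 and 58.5 in sh4, and 77.5 and 69.1 in shNT, so that the groups overlapped, and its difference was −0.04 ± 0.290 (SE, limma adjusted p = 0.976 over genes). The other 4 probe sets had positive differences of 0.51 to 0.99. The probe set 1434298_at read 77.1 and 54.5 in sh3, 128.6 and 54.0 in sh4, and 29.8 and 29.0 in shNT. Every knockdown array was above both shNT arrays there, as in 9.66% of all probe sets. The difference of 1434298_at was 0.99 ± 0.397 (SE), with limma adjusted p = 0.533 over all probe sets.

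A further Zeb2 probe set had its largest signals in sh4. This set, 1456389_at, read 36.5 and 53.0 in sh3, 95.99 and 148 in sh4, and 20.5 and 43.6 in shNT. Both sh4 arrays lay above both sh3 arrays, as in 19.8% of all probe sets, and also above both shNT arrays. The difference was 1.54 ± 0.440 in sh4 against shNT (SE, limma adjusted p = 0.353) and 0.37 ± 0.440 in sh3 against shNT (SE, adjusted p = 0.914). The probe set 1422748_at read 66.6 and 40.6 in sh3, 100.3 and 79.1 in sh4, and 72.1 and 24.5 in shNT. There too both sh4 arrays were above both sh3 arrays (19.8% of all probe sets) and above both shNT arrays. The probe set 1454200_at read 50.2 and 21.4 in sh3, 62.2 and 13.5 in sh4, and 18.4 and 4.79 in shNT, with the sh4 arrays overlapping either other group. The Zeb2 probe sets thus differed in the size of the change: the brightest gave −0.04, smaller than its error, and the others gave positive differences. Averaged over all its probe sets, the gene gave 0.66.

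Snai1, which represses Cdh1 in gastrulating mesoderm, read 42.7 and 39.9 in sh3, 60.02 and 39.5 in sh4, and 33.0 and 20.2 in shNT (1448742_at). All 4 knockdown arrays lay above both shNT arrays, as in 9.66% of all probe sets, but the mean over arrays fell under the 40th percentile. The difference of 0.53 ± 0.363 (SE) did not pass over all probe sets (limma adjusted p = 0.745). Snai2 is prominent in neural crest. Its brighter probe set (1447643_x_at) read 103.5 and 168 in sh3, 33.6 and 212 in sh4, and 70.9 and 116 in shNT. The 2 sh4 arrays were the lowest and the highest of the 6, and the difference of 0.23 ± 0.537 (SE, limma adjusted p = 0.911 over genes) was smaller than its error. The second Snai2 probe set (1418673_at) read 31.6 and 38.8 in sh3, 44.7 and 76.9 in sh4, and 41.0 and 45.8 in shNT, a difference of 0.06 ± 0.361 (SE, limma adjusted p = 0.979 over all probe sets). Both sh3 arrays lay below both shNT arrays there, as in 17.1% of all probe sets, and below both sh4 arrays, as in 19.8%. The sh4 and shNT arrays overlapped.

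Twist1, a mesoderm and neural crest factor, read 106.5 and 126.5 in sh3, 85.4 and 80.3 in sh4, and 48.9 and 52.1 in shNT (1418733_at). Both sh3 arrays were above both sh4 arrays, an order found in 16% of all probe sets, and both sh4 arrays were above both shNT arrays. A place above both shNT arrays on all 4 knockdown arrays was found in 9.66% of all probe sets. The mean was 99.7 ± 21.2 over the knockdown arrays (SD, n = 4) against 50.5 ± 2.24 in shNT (SD, n = 2), a ratio of 1.97. The difference of 0.78 ± 0.256 (SE) did not pass over genes, with limma adjusted p = 0.263 and 0.121 with the block. Sh4 minus sh3 was −0.42 ± 0.296 (SE, limma adjusted p = 0.868). Twist2, expressed in dermal and bone precursors, read 37.1 and 60.3 in sh3, 63.2 and 37.9 in sh4, and 20.8 and 2.10 in shNT (1448925_at). All 4 knockdown arrays lay above both shNT arrays, while the sh3 and sh4 arrays overlapped, and the difference was 1.32 ± 0.429 (SE, limma adjusted p = 0.422 over all probe sets), but the shNT signals were low and the value moved between 0.59 and 2.58 with pseudocounts of 64 and 1.

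Over all 18 probe sets, 8 lay above both shNT arrays on all 4 knockdown arrays, 0 lay below both, and 10 overlapped. Among all probe sets on the array 9.66% lay above and 7.62% below. The 8 were the 4 of Ets1, 1 of Zeb2 and those of Snai1, Twist1 and Twist2, and 4 of the 8 averaged under the 40th percentile. Of the 12 probe sets at or above it, 4 lay above both shNT arrays and 0 below, against 10.4% and 8.77% of all such probe sets. In all, 14 of the 18 differences were positive, with a median of 0.55 against 0.02 over all probe sets. In limma 0 of the 18 passed over all probe sets in the knockdown mean (0.0422% of all probe sets did), while 8 had an unadjusted p under 0.05, as 8.66% of all probe sets did. Likewise 0 passed in sh3 alone, where 0% of all probe sets did, and 0 in sh4 alone, where 0.0155% did, with 6 and 7 at an unadjusted p under 0.05 (6.97% and 8.86% of all probe sets). With the block 2 of the 18 passed in the knockdown mean, both of Ets1 (1.03% of all probe sets), and 1 in each hairpin alone (0.54% in sh3 and 0.924% in sh4).

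**Figure D2:**
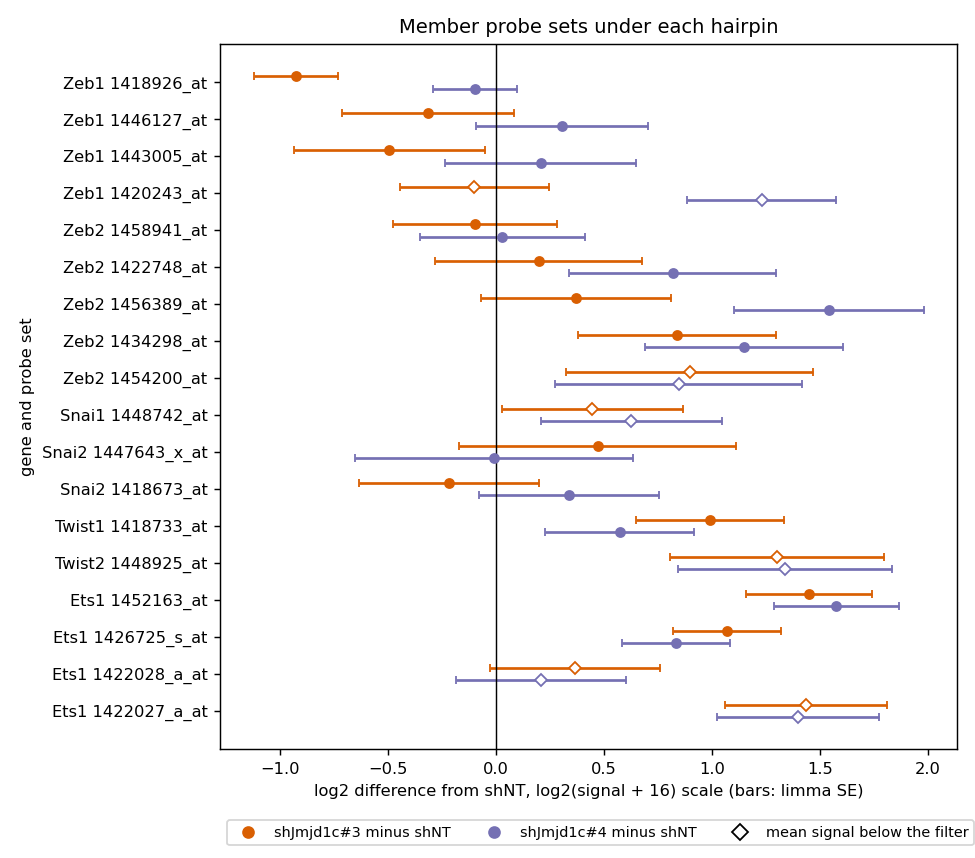
Difference from shNT on the log2(signal + 16) scale for the 18 probe sets, with sh3 and sh4 drawn separately, bars showing the standard error from limma and open diamonds for probe sets averaging under the 40th percentile. The Ets1 probe set 1452163_at had similar values with both hairpins (1.45 in sh3, 1.58 in sh4), and Zeb1 1418926_at had −0.93 in sh3 and −0.10 in sh4.

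The genes of the epithelial list, which holds common markers and is not a list of proven Zeb or Snail targets, differed between the hairpins in their median. In sh3, 28 of 30 tested genes were higher than in shNT, with a median difference of 0.37, against 51.0% of all genes and a median of 0.01. In sh4, 14 of 30 were higher, with a median of −0.09, against 52.6% and 0.02 over all genes. For sh4 minus sh3 the median was −0.44 with 26 of 30 negative, against a median of 0.01 over all genes. In limma 0 of the 30 passed in the knockdown mean, in either hairpin or in the difference (0.725%, 0.071%, 0.363% and 0% of all genes), and 4, 9, 5 and 10 had an unadjusted p under 0.05 (12.3%, 9.74%, 12.1% and 6.1% of all genes). With the block 9 rose in sh3 (2.03% of all genes rose), Cxadr rose while Epcam and Ap1m2 fell in sh4 (2.69% and 2.22%), and 3 were lower in sh4 than in sh3 (0.244%). The epithelial list as a whole was given no test. Most endoderm markers were higher in sh4 than in sh3, as given with the markers below, and the sh3 arrays had the lower Actb end ratio. The part of either in the epithelial values was not tested.

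The 3 lower in sh4 than in sh3 were Epcam, an epithelial adhesion protein, Cldn7, a tight junction claudin, and Ap1m2, the epithelial sorting adaptor. Cldn7 read 2475 and 2102 in sh3, 1617 and 1058 in sh4, and 1629 and 1231 in shNT. Both sh3 arrays were above both sh4 arrays, as in 16% of all probe sets, and also above both shNT arrays. Sh4 minus sh3 for Cldn7 was −0.79 ± 0.215 (SE), with limma adjusted p = 0.568, and 0.0207 with the block. Ap1m2 read 1222 and 1359 in sh3, 691 and 764 in sh4, and 1034 and 1038 in shNT, a sh4 minus sh3 difference of −0.81 (limma adjusted p = 0.352, and 0.0207 with the block). Cdh1 itself read 17257 and 16977 in sh3, 15271 and 13768 in sh4, and 14441 and 12329 in shNT, with both sh3 arrays above the rest. Its knockdown difference was 0.24 ± 0.10 (SE, limma adjusted p = 0.390). In sh3 alone the Cdh1 difference was 0.36 ± 0.12 (SE, limma adjusted p = 0.354), and with the block Cdh1 rose there (adjusted p = 0.0282).

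In the knockdown mean 22 of the 30 epithelial differences were positive, with a median of 0.17. With the block Cxadr, a junctional adhesion protein, Cldn6, an early epithelial claudin, and Krt8 and Krt18, paired keratins of simple epithelia, rose by 0.93, 0.61, 0.49 and 0.43. Their limma adjusted p without the block was 0.122, 0.188, 0.670 and 0.562, in the same order. Krt8 shows what the block removes: it read 2615 and 6019 in sh3, 2272 and 3337 in sh4, and 1559 and 3553 in shNT, lower on the replicate 1 array in each group. The genes on this list are those usually used as epithelial markers and were chosen with earlier results of these data known.

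Most mesenchymal genes had higher signals with the hairpins. Of 22 tested, 20 were positive in sh3, where Tnc and Acta2 passed in limma, and 21 in sh4, where Tnc, Acta2, Col3a1 and Vim passed. In the knockdown mean 21 were positive, with a median of 0.81 against 0.01 over all genes, and 14 lay above both shNT arrays on all knockdown arrays, as 11.2% of all genes did. In limma 7 rose in the knockdown mean and 0 fell (0.56% and 0.166% of all genes), and 11 rose with the block (3.33% of all genes). The 7 were Tnc (tenascin C, a matrix glycoprotein, 3.09), Acta2 and Tagln (smooth muscle cytoskeleton, 2.03 and 1.55), Col3a1 (a fibrillar collagen, 2.01), Vim (vimentin, 1.05), Cald1 (caldesmon, 0.81) and Sparc (a matrix protein, 0.64), in log2 differences with limma adjusted p under 0.05. Tnc read 141 and 158 in sh3, 354 and 313 in sh4, and 19.6 and 6.36 in shNT. The sh4 arrays were highest and the shNT arrays lowest. Tnc and Acta2 passed without each array in turn (limma adjusted p of at most 0.0348), but with the mean of its probe sets Acta2 gave 0.67 (adjusted p = 0.309) and Sparc 0.25 (0.514). Sparc passed in none of those 6 fits and the other 4 in 1 each: Col3a1, Tagln and Cald1 without sh3 replicate 1, and Vim without shNT replicate 1. The count for the list was then 2 to 5. The count was 0 without limma's intensity trend and 2 without the filter on dim genes.

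Markers of other cell types were read beside these values. Of 17 feeder fibroblast markers, 11 averaged at or above the 40th percentile, and the summed signal of all 17 was 1582 and 1609 in sh3, 1942 and 2086 in sh4, and 1283 and 1339 in shNT. In limma Col3a1 rose in the knockdown mean and Col3a1 and Dcn rose in sh4. Of the 11 tested, 10 differences were positive in the knockdown mean, with a median of 0.33 against 0.01 over all genes. Among them 3 had an unadjusted p under 0.05 (12.3% of all genes). Fbln1, Fbln2 and Loxl1 averaged 93.6%, 101% and 102% of shNT over the knockdown arrays. The dim Postn, Fap and Ogn averaged 70.6%, 90.3% and 81.0% of it. Dcn, the matrix proteoglycan decorin, read 41.4 and 47.1 in sh3, 106.0 and 113 in sh4, and 10.9 and 11.7 in shNT (limma adjusted p = 0.0504 in the knockdown mean and 0.0456 in sh4). Of 14 markers of primitive and visceral endoderm, 10 were at or above that percentile, and the sum of all 14 was 2436 and 2621 in sh3, 5622 and 4531 in sh4, and 2055 and 2221 in shNT. Col4a1, a basement membrane collagen, was the largest single part of that sum on every array. It read 1046 and 1277 in sh3, 2672 and 2050 in sh4, and 698 and 787 in shNT. Col4a1 rose by 1.13 ± 0.15 (SE, limma adjusted p = 0.0214), and by 1.04 to 1.23 without each array in turn. It did not pass without the intensity trend (limma adjusted p = 0.122) or with the knockdown arrays as 1 group (0.157). The mean of its probe sets gave 0.82 (limma adjusted p = 0.121). The median of the tested endoderm markers for sh4 minus sh3 was 1.00, with 8 positive and 2 negative. For sh3 against shNT their median was 0.16. Of 11 endothelial markers, 7 were at or above it, and the sum of all 11 was 1160 to 1262 on the knockdown arrays and 1148 and 1348 in shNT. In limma 0 of the 7 passed in the knockdown mean. Esam, an endothelial junction protein, had the smallest p (2.04-fold, limma adjusted p = 0.175). It lay above both shNT arrays on every knockdown array, as 11.2% of all genes did. Tek, a vascular receptor, averaged lower with a difference of −0.51 (limma adjusted p = 0.275). Tie1, another vascular receptor, read at most 7.58 on any array. No marker was at exactly 0 on any array, and fewer cells of a type cannot be told apart from less RNA per cell in bulk samples. The part of fibroblast-like or endoderm-like cells in the Ets1, Zeb1, Twist and mesenchymal values was not tested.

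**Figure D3:**
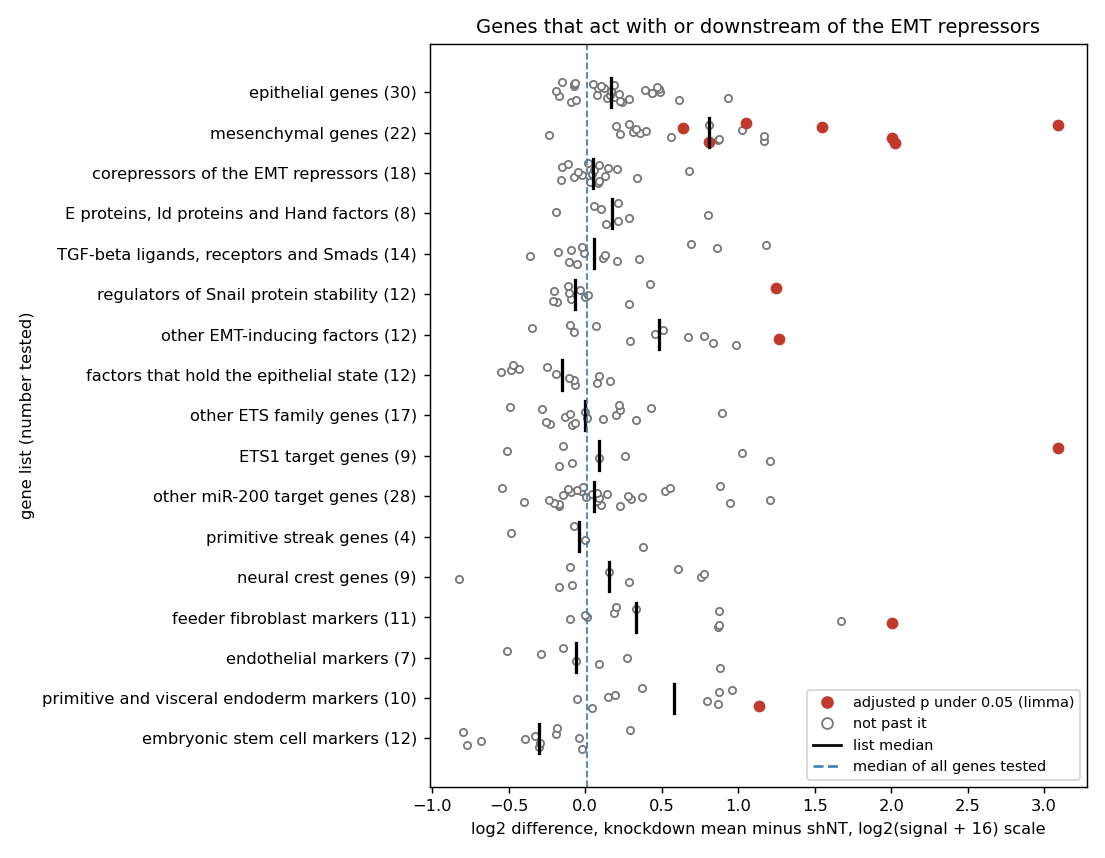
Difference from shNT on the log2(signal + 16) scale for each tested gene of the lists, 1 point per gene, filled red where the limma adjusted p was under 0.05, with a black line at the median of each list and a dashed line at the median of all genes. The mesenchymal median was 0.81 and the epithelial median 0.17 in the knockdown mean, while the corepressor and other ETS medians were near 0.

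Genes that work with the repressors were followed next. Of 18 tested genes on a list of corepressors of the EMT repressors, 0 passed in limma (0.725% of all genes did), with a median of 0.05. On this list 1 had an unadjusted p under 0.05, as 12.3% of all genes did. The smallest p belonged to L3mbtl3, a chromatin reader, at 0.68 ± 0.18 (SE, limma adjusted p = 0.164). Whether L3mbtl3 acts with the EMT repressors was not tested. Of 8 E protein, Id protein and Hand genes, the partners and inhibitors of Twist, 0 passed, with a median of 0.17. Of the 8, 2 had an unadjusted p under 0.05 (12.3% of all genes). Id3, an inhibitor of E proteins, gave 0.80 ± 0.24 (SE, limma adjusted p = 0.214), and both L3mbtl3 and Id3 rose with the block (3.33% of all genes rose). Of 12 regulators of Snail protein stability, with a list median of −0.07, 1 rose (0.56% of all genes rose). This was Lats2, a Hippo pathway kinase, by 1.25 ± 0.20 (SE, limma adjusted p = 0.0361). The Lats2 call was lost without each array in turn (limma adjusted p = 0.0707 to 0.127), and the mean of its probe sets gave 0.38.

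Among signals that induce the repressors, 0 of 14 TGF-beta ligands, receptors and Smads passed in limma (0.725% of all genes did). Their median was 0.05, and 4 had an unadjusted p under 0.05 (12.3% of all genes). Tgfbr2, the type II receptor, had the smallest p, at 1.18 ± 0.29 (SE, limma adjusted p = 0.144), and rose with the block (3.33% of all genes rose). Of 12 other EMT-inducing factors with a median of 0.48, 5 had an unadjusted p under 0.05 (12.3% of all genes). In limma 1 rose (0.56% of all genes), Hmga2, a chromatin protein that activates Snail and Twist genes in mammary cells. It read 839 and 821 in sh3, 1510.3 and 1642 in sh4, and 454 and 481 in shNT, a difference of 1.26 ± 0.12 (SE, limma adjusted p = 0.0109). Both sh4 arrays were above both sh3 arrays, which were above both shNT arrays. Hmga2 did not pass without the intensity trend (limma adjusted p = 0.0857) or with the knockdown arrays as 1 group (0.0807). The mean of its probe sets gave 0.98 (limma adjusted p = 0.0542), and leaving out each array gave 1.22 to 1.30. Of 12 factors that hold the epithelial state, such as Klf4, 0 passed, with a median of −0.15. Of the 12, 4 had an unadjusted p under 0.05 (12.3% of all genes). Klf4 and Tfap2c fell with the block, by 0.55 and 0.47 (2.26% of all genes fell).

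The ETS family and the targets of Ets1 and of the miR-200 family completed the lists. Of 17 other ETS genes tested, 0 passed in limma, 1 had an unadjusted p under 0.05 (12.3% of all genes), and the median was 0.00. Etv4, a PEA3-group factor, had the smallest p at 0.89 ± 0.24 (SE, limma adjusted p = 0.171) and rose with the block. Of 9 tested genes on a list of ETS1 targets, 1 rose (0.56% of all genes rose), and the median was 0.09. The 1 was Tnc, which is also on the mesenchymal list. Of these 9 differences, 5 were positive and 4 negative, and 4 had an unadjusted p under 0.05 (12.3% of all genes). Tek, on this list and among the endothelial markers, read 258 to 296 on the knockdown arrays and 441 and 364 in shNT. Mmp9, a matrix metalloproteinase, gave 1.02 ± 0.26 (SE, limma adjusted p = 0.159), and with the block it rose too. Of 28 tested genes on a list of other miR-200 targets, 0 passed in limma and 9 had an unadjusted p under 0.05, against the 12.3% of all genes. The median of these targets was 0.06, with 16 positive, and it was −0.02 after median centring. With the block 4 rose, Tcf7l1, Msn, Rnd3 and Cyp1b1, by 0.55, 0.37, 0.52 and 0.95 (3.33% of all genes rose).

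The tested genes of tissue programs in which the repressors act gave no call in limma. Of 4 tested primitive streak genes 0 passed and 1 had an unadjusted p under 0.05, Nodal, at −0.48 ± 0.12 (SE, limma adjusted p = 0.142), which fell with the block. Of 15 listed neural crest genes, 14 were matched on the array and 9 were tested. Of the 9, 0 passed and 3 had an unadjusted p under 0.05 (12.3% of all genes). Mitf, the melanocyte factor, gave −0.82 ± 0.19 (SE, limma adjusted p = 0.128) and fell with the block, and Msx2, a homeobox gene of crest and mesenchyme, gave 0.78 ± 0.29 (SE, limma adjusted p = 0.316).

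The genes whose pattern over the 6 arrays was most like that of each member were found by Pearson's r of log2(signal + 16) among 12115 genes, as a description. With 6 arrays in 3 groups, many genes reach a high r, and 25 to 59 genes exceeded 0.95 for each of the 5 members at or above the 40th percentile. Ets1 was most like Rassf1 (r = 0.998), Derl2 (0.996) and Tsen15 (0.990). Zeb1 was most like Mrs2 (0.993), Gpa33 (0.989) and Gnpda1 (0.989), which shared its low sh3 signals. Twist1 was most like Msx2 (0.992), Samd4 (0.992) and Sparc (0.990), and Sparc and Msx2 are on the mesenchymal and neural crest lists. Zeb2 was most like Cmtm1 (0.982), Klhdc3 (0.977) and Polr2a (0.974), and Snai2 was most like Tbc1d19 (0.996), Prss22 (0.992) and Pno1 (0.989), with patterns led by single arrays.

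**Figure D4:**
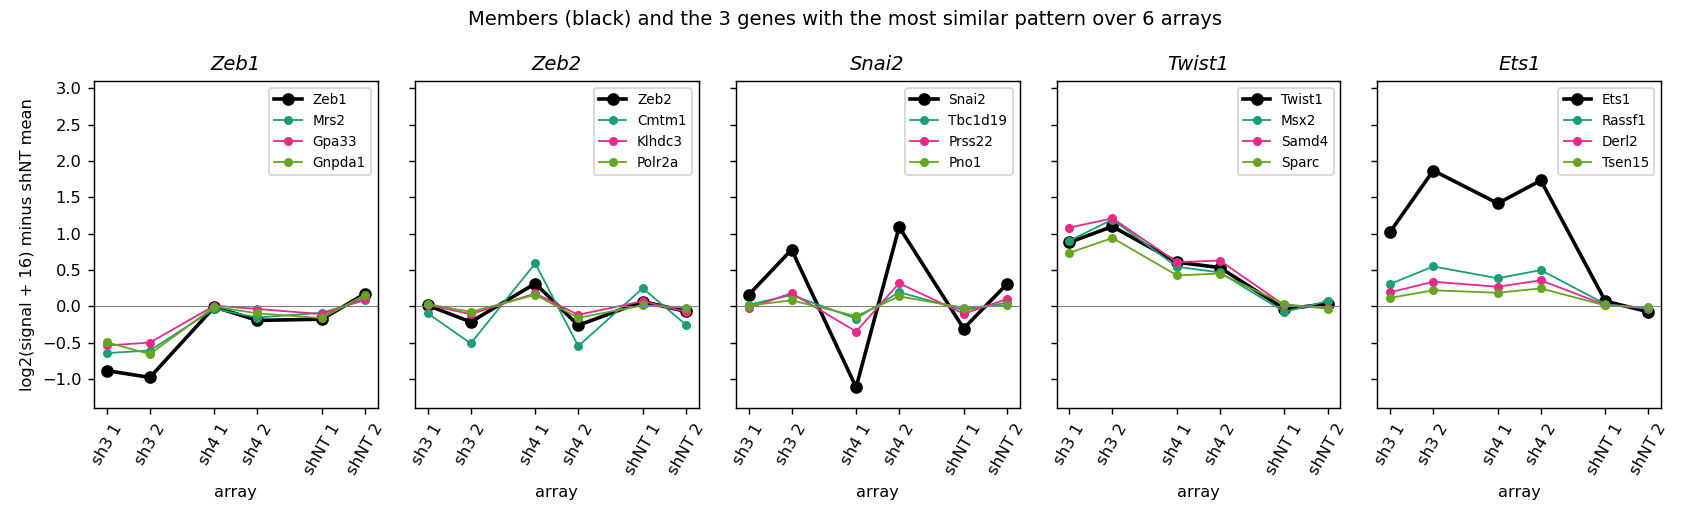
Log2(signal + 16) minus its mean over the shNT arrays for Zeb1, Zeb2, Snai2, Twist1 and Ets1 (black) and the 3 genes most like each (coloured), by array, with sh3, sh4 and shNT from left to right and lines that only join the points of 1 gene. Ets1 and its neighbours were lower on both shNT arrays, and Zeb1 and its neighbours on both sh3 arrays.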

How the data were processed

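Each of 6 samples (6 ug of total RNA) was read on an Affymetrix mouse array of its own. The deposited values are signal intensity on a linear scale, made by the authors with MAS5 per the submitters' processing notes (version not given in the sources used here), and were used as scaled. Symbols came from the platform annotation, with 34945 probe sets carrying 1 symbol.

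Group means of log2(signal + 16) were fitted with limma 3.58.1 (R 4.3.3) over all 6 arrays, with an intensity trend (residual df 3, prior df 5.81 for probe sets and 5.96 for genes), 2-sided tests and Benjamini-Hochberg adjustment at 0.05. One fit covered all 45037 probe sets without controls, with no filter. The gene fit took the brightest probe set per gene and left out genes averaging under the 40th percentile, so that 12684 were tested. Errors are SDs of signals or standard errors of differences. The fit over probe sets without the block was also run on simulated data with independent noise on each array, for the knockdown mean. That run did not cover the gene fit or the block. The number of arrays limits the precision, and no source says that duplicates came from separate days or cultures beyond the term biological replicate.

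Same-numbered arrays deviated together across 12684 genes (r = 0.300, 0.302 and 0.223), so the title's replicate numbers were taken to pair the samples and a fit with the number as a block was added (residual df 2). This rests on the same data.

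The members and lists were chosen with earlier results of these data known. Every probe set of a member is named. For each list the genes past the threshold, otherwise those with the smallest p, are named, and for likeness the 3 highest r. Epithelial genes named for the hairpin difference or for the block, Krt8, Cdh1, and Dcn, Tek and Tie1 among the markers were chosen after their values were seen. Alternatives were other pseudocounts, quantile normalization, median centring, no trend, the block, other filters, probe sets averaged by gene, and leaving out each array.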

Additional observations from a re-analysis of the deposited data

Results flagged for a closer look

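For the Zeb1 probe set 1443005_at, 1 hairpin gave a negative and the other a positive difference from the shNT mean: the mean difference was 0.21 in sh4 and −0.49 in sh3, and sh4 minus sh3 was 0.70 ± 0.442 (SE, limma adjusted p = 0.973). For the Snai2 probe set 1418673_at the same held, with 0.34 in sh4 and −0.22 in sh3, and sh4 minus sh3 of 0.56 ± 0.417 (SE, limma adjusted p = 0.973). Both were picked out because every sh4 array lay on 1 side of the shNT mean and every sh3 array on the other, and in neither did the test of the difference pass.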

How the results depend on the processing

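The Ets1 rise kept its direction under all 16 alternatives of the gene fit and passed in 7. It gave 1.44 after median centring (limma adjusted p = 0.0508), 1.51 without the intensity trend (0.146), 1.51 with no filter on dim genes (0.0679) and 1.04 with the mean of its probe sets (0.121), where the dimmer sets enter. Leaving out each array gave 1.30 to 1.72 in the knockdown mean, 1.03 to 1.87 in sh3, 1.42 to 1.73 in sh4 and −0.29 to 0.55 for sh4 minus sh3, which was −0.0761 with the mean of probe sets. With the replicate block, which treats same-numbered arrays as pairs, Ets1 passed in sh3 (1.45) and sh4 (1.58) and Zeb1 in sh3 (−0.93), and 2 member probe sets passed in the knockdown mean, 1 in sh3 and 1 in sh4. The block changed no other member's call.

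Counts of genes moved more. The 92 genes of the knockdown mean became 0 without the trend, 36 with no filter, 34 with the mean of probe sets, 710 with the block and 4 to 43 without each array. The 9 of sh3 became 0 with a pseudocount of 1, without the trend, with no filter, with the 60th percentile filter and with the mean of probe sets, 435 with the block, and 0 to 1 without each array. The 46 of sh4 became 6 without the trend, 21 with no filter, 27 with the mean of probe sets, 622 with the block and 3 to 39 without each array, and the 0 of sh4 minus sh3 became 53 with the block. The 7 mesenchymal calls became 4 after median centring, 0 without the trend, 2 with no filter, 2 with the mean of probe sets, 11 with the block and 2 to 5 without each array. With the block 4 epithelial and 4 miR-200 target genes passed.

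Small differences changed sign. In the knockdown mean, Zeb1 1446127_at gave 0.00878 with a pseudocount of 64 and −0.19 to 0.18 without each array, Zeb1 1443005_at −0.36 to 0.0661, Zeb2 1458941_at −0.18 to 0.11 (0.66 with the mean of the gene's probe sets), Zeb2 1422748_at −0.0546 to 1.07, Snai2 1447643_x_at −0.32 to 0.78, and Snai2 1418673_at −0.0935 to 0.21, −0.00028 after quantile normalization and −0.0147 after median centring. The miR-200 target median was −0.0151 after median centring, −0.00541 with the 60th percentile filter and −0.00901 to 0.12 without each array. In sh3, Zeb2 1458941_at gave −0.21 to 0.0147. In sh4, Zeb1 1418926_at gave −0.27 to 0.0759 (0.41 with the mean of probe sets), Zeb2 1458941_at −0.26 to 0.32, −0.0848 after quantile normalization and −0.0808 after median centring, and Snai2 1447643_x_at −1.11 to 1.09, and 0.0753 with a pseudocount of 64. For sh4 minus sh3, Zeb2 1458941_at gave −0.16 to 0.41, Snai1 1448742_at −0.0457 to 0.41, Snai2 1447643_x_at −1.58 to 0.62, Twist2 1448925_at −0.24 to 0.32, −0.0508 after quantile normalization and −0.0301 after median centring, and Ets1 1452163_at −0.29 to 0.55. The causes were not tested. Snai1 and Twist2 averaged under the 40th percentile, and their signal over background and the 2 arrays a group limit what can be said of them.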
